A study of Mus musculus with 2 samples.

Results

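The 10 genes described here encode enzymes of glycolysis, and they were followed in the skin of newborn mice without keratin 5 (K5-/-) and in the skin of wildtype newborn mice. A probe set counted as a member when the array annotation gave it exactly 1 gene symbol and that symbol was Hk1, Hk2, Gpi1, Pfkl, Aldoa, Tpi1, Pgk1, Pgam1, Eno1 or Ldha. This rule found 10 probe sets among the 12488 of the array, and they belong to 8 of the 10 genes. Gpi1 and Eno1 have no probe set of that kind in the annotation used here and were not analysed. Total RNA from the skin of 6 animals per genotype, taken immediately after birth, was pooled, and each pool was read on 1 array of the Affymetrix type. Strain and sex are not given in the sources used here. With 1 array per genotype there is no replicate, so no test was possible, and every difference below is between 2 arrays and not between genotypes in general.

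Glycolysis converts glucose to pyruvate in the cytosol and yields ATP without oxygen, and lactate dehydrogenase can then reduce pyruvate to lactate. The epidermis has no blood vessels of its own and is known for a high output of lactate. Keratin 5 is the type II keratin of basal keratinocytes, and its loss makes these cells fragile, as in epidermolysis bullosa simplex, the blistering disease that this mouse line models. Several glycolytic genes are textbook targets of the hypoxia-inducible factors and of MYC, which bind short DNA motifs that contain the letters ACGTG or GCGTG or, for MYC, CACGTG.

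The values are MAS5 signals, a linear intensity per probe set that the Affymetrix software computes from the probes of that set. Both arrays had been scaled to a common overall level (2% trimmed means of 994 in each), and the floor used here for low signals was 246.7 signal units, the 40th percentile of all values. The available measure of technical error is the spread of the log2 ratio between probe sets of the same gene, whose SD was 0.30 over 838 genes and 0.23 over 289 genes of higher signal (at least 1000 units). Differences between animals, between pools or between hybridisations are not in it. The RNA integrity controls were alike on the arrays, with ratios of the 3 prime to the 5 prime signal of Gapdh of 0.841 for K5-/- skin and 0.831 for wildtype skin. The targeted gene did not serve to check the genotypes, since Krt5 read 81.2 in K5-/- skin and 46.6 in wildtype skin, both under the floor. The probe sets of the basal keratins Krt14 and Krt15 were also under the floor on both arrays, so no level of the basal keratins can be read from them. The suprabasal keratins Krt1 and Krt10 read 50250 and 37483 in K5-/- skin and 41396 and 42594 in wildtype skin.

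The promoters of the enzymes with the highest and the lowest ratios, Hk2, Pgk1 and Pfkl, are shown with that of Ldha, the gene of the last step, because these are the members on which the comparison below turns. Each sequence is the 250 bases upstream of a transcription start annotated by RefSeq (build GRCm38.p6), written 5′ to 3′ on the strand of the gene, and capitals mark ACGTG or its reverse complement CACGT. Hk2 lies on the minus strand (chr6:82774455-82774704), Pgk1 on the plus strand (chrX:106186850-106187099), Pfkl on the minus strand (chr10:78009808-78010057) and Ldha on the plus strand (chr7:46845554-46845803).
Hk2: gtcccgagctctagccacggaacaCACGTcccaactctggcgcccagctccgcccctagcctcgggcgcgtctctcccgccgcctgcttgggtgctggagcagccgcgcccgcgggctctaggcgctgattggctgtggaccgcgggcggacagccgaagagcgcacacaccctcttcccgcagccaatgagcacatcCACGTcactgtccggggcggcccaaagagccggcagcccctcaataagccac
Pgk1: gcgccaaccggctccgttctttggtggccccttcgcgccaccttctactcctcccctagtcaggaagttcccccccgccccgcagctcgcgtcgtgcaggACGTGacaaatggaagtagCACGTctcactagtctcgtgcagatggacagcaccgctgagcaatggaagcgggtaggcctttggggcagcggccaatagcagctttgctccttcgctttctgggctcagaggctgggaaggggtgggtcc
Pfkl: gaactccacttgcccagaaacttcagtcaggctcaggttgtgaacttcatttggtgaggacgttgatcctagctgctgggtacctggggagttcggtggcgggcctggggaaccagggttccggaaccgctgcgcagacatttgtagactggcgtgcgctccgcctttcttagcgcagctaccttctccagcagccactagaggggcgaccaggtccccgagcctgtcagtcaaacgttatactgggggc
Ldha: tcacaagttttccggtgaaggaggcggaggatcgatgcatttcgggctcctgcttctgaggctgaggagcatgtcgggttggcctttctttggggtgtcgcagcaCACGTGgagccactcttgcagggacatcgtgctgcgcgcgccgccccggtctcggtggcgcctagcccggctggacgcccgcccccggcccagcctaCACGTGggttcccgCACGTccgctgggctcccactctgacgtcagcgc
The Hk2 window held 2 matches and so did the Pgk1 window. Hk2 had the highest and Pgk1 the lowest ratio of the members. The Pfkl window held 0 matches to ACGTG and 1 to GCGTG, which is not in capitals. The Ldha window held 5 matches to ACGTG, of which 4 come from its 2 palindromic CACGTG copies, each counted on both strands, and the other stands alone. A second annotated start of Ldha, farther downstream, had 0 matches to ACGTG in its window. Over all 10 genes, with 16 annotated windows between them, ACGTG was found in 6 windows of 5 genes (Hk2, Aldoa, Pgk1, Pgam1 and Ldha), against 16.6% of the 32851 windows of all annotated genes. Windows of nearby starts of a gene can overlap, so these counts are not of separate stretches of DNA. The 2 Aldoa windows with ACGTG share the same site, and 2 Eno1 windows overlap as well. GCGTG was found in 7 of the 16 windows, belonging to 5 genes, against 28.2% of all windows. CACGTG, which contains ACGTG, was found in 1 of the 16 windows, against 6.02% of all windows, and GGGCGG, the letters of the GC box, in 9 of 16, against 32.7% (reverse complements included in each case). A match is a run of letters and shows neither binding nor regulation.

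Of the 10 member probe sets, 9 exceeded the floor on each array, and 1 of the 2 probe sets of Hk2 was under it on both. None of the 9 differed 2-fold, a size reached by 2.25% of the 7067 measured single-symbol probe sets of the array (1.51% higher and 0.736% lower in the knockout). Of the 9, 2 were higher and 7 were lower in the knockout, where 54.7% of all measured probe sets were higher and 45.3% were lower. Taking each gene by its brightest probe set, 2 of 8 were higher and 6 were lower (53.9% and 46.1% over all measured genes), with a median log2 ratio of knockout over wild type of -0.29, beside a median of 0.04 over all 5976 measured genes. Among the 2640 probe sets at least as bright as the dimmest measured member, 47.7% were higher and 52.3% were lower, with a median of -0.02. Most members are bright, so this is the closer background. Against the SD of 0.30 over all genes, the ratios of 5 probe sets exceeded 1 SD in size, those of Hk2, Pfkl, Pgk1, Pgam1 and Ldha, and that of Hk2 exceeded 2 SD. All 9 had a mean signal of at least 1000, and against the SD of 0.23 over such genes Hk1 exceeded 1 SD as well, 6 in all, and Hk2, Pfkl and Pgk1 exceeded 2 SD.

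**Figure D1:**
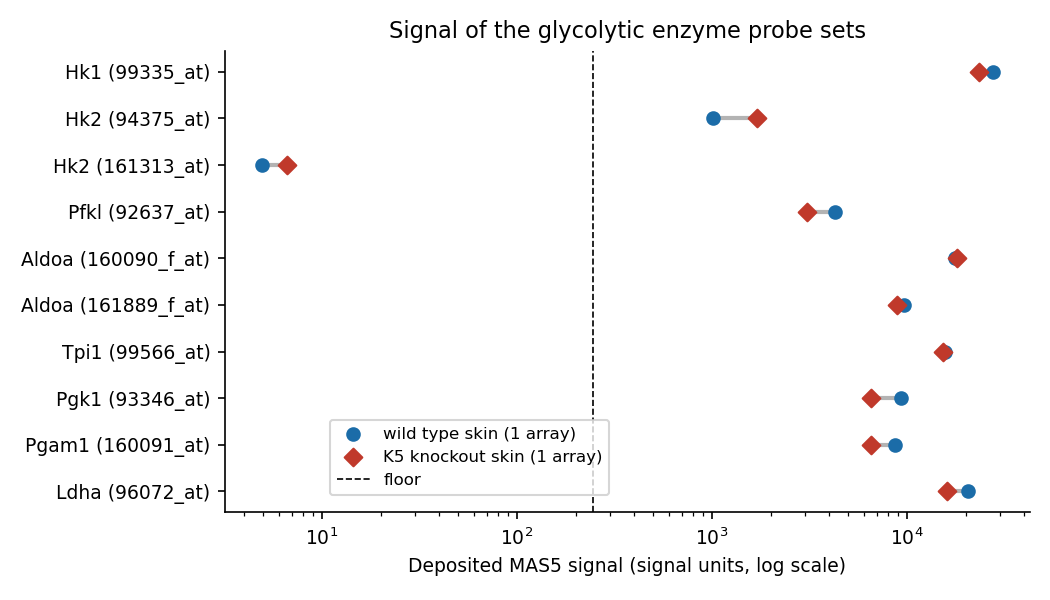
Deposited MAS5 signal of each member probe set in K5 knockout skin (red diamonds) and wild type skin (blue circles), 1 array each, on a log axis in pathway order, with the floor of 246.7 units as a dashed line. The knockout signal lies to the left of the wild type for Hk1, Pfkl, Pgk1, Pgam1 and Ldha and to the right for Hk2 (94375_at), and the probe set 161313_at of Hk2 is far below the floor.

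The pathway opens with the hexokinases, which trap glucose in the cell by phosphorylating it, and here the isoforms differed in direction. Hk2, the inducible hexokinase of muscle, fat and growing cells, read 1703 in K5-/- skin and 1012 in wildtype skin (94375_at). It was 1.68-fold higher in the knockout, a log2 ratio of 0.75, or 2.53 times the SD of 0.30 between probe sets of a gene. Of all measured probe sets, 3.89% had a ratio at least as high, and of those at least as bright as Hk2, 2.50% did. The other Hk2 probe set (161313_at) read 6.6 and 4.9 and gives no ratio, so the Hk2 value rests on 1 probe set. Hk1, the broadly expressed isoform that binds the outer mitochondrial membrane, read 23517 in K5-/- skin and 27697 in wildtype skin (99335_at). That is 1.18-fold lower in the knockout, a log2 ratio of -0.24 that is inside the SD of 0.30 over all genes and just outside the SD of 0.23 over bright genes. The Hk2 and Hk1 log2 ratios thus differed by 0.99. Hk2 relative to Hk1 was 1.98-fold higher on the knockout array than on the wild type array.

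Pfkl, the liver-type subunit of phosphofructokinase, which catalyses the committed step of glycolysis, read 3071 in K5-/- skin and 4260 in wildtype skin (92637_at). Its log2 ratio was -0.47, or 1.39-fold lower, and 8.69% of all measured probe sets had a ratio as low or lower. Among the probe sets at least as bright as Hk2, the dimmest measured member, the share was 9.58%. Its size was 1.59 times the SD of 0.30 between probe sets. Differences in the middle of the pathway were smaller. Aldoa, the aldolase that splits fructose bisphosphate into trioses, read 18129 in K5-/- skin and 17554 in wildtype skin on 1 probe set (160090_f_at) and 8927 and 9656 on the other (161889_f_at). The log2 ratios were 0.05 and -0.11, opposite in sign and 0.16 apart, and each was within both SDs between probe sets. Both Aldoa probe sets carry the suffix that Affymetrix gives to sets whose probes match members of a gene family, so related aldolase transcripts can contribute to them. Tpi1, which interconverts the triose phosphates, read 15231 and 15770 (99566_at), a log2 ratio of -0.05 that became 0.06 under quantile normalization.

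In the lower part of the pathway, all 3 measured members were lower in the knockout. Pgk1, which makes the first ATP of the payoff phase, read 6550 in K5-/- skin and 9319 in wildtype skin (93346_at), 1.42-fold lower. Its log2 ratio of -0.51 was the lowest of the members, and the only one at or under -0.5, a value reached by 7.51% of all measured probe sets and by 8.07% of those at least as bright as Hk2. On the other side, Hk2 was the only member at or above 0.5, which 11.2% of all and 6.78% of the bright probe sets reached. Pgam1, the phosphoglycerate mutase of most tissues, read 6509 and 8641 (160091_at), 1.33-fold lower with a log2 ratio of -0.41. Ldha, which turns pyruvate into lactate and regenerates NAD+, read 16109 and 20557 (96072_at), 1.28-fold lower with a log2 ratio of -0.35. Of all measured probe sets, 11.6% had a ratio as low as that of Pgam1 and 14.8% one as low as that of Ldha. Single ratios of this size are therefore common on these arrays.

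**Figure D2:**
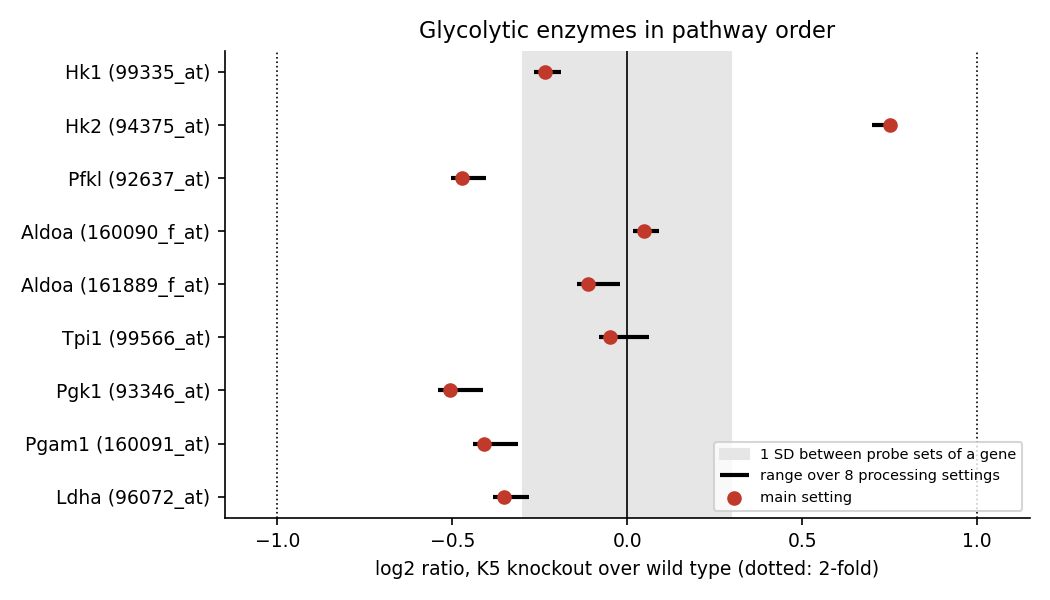
Log2 ratio of K5 knockout over wild type for the 9 measured member probe sets in pathway order (points, main setting), with the lowest and highest value over 8 processing settings (bars), the SD of 0.30 between probe sets of a gene (grey band) and the 2-fold limits (dotted). Hk2 lies at 0.75 on the right, Pfkl, Pgk1, Pgam1 and Ldha lie left of the band in the main setting, and Hk1, Aldoa and Tpi1 lie inside it.

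Hk2 differed in direction from most of the pathway. Its log2 ratio exceeded those of the other 8 measured probe sets by 0.70 (Aldoa, 160090_f_at) to 1.26 (Pgk1). Relative to Pfkl, Pgk1, Pgam1 and Ldha it was 2.33-fold, 2.39-fold, 2.23-fold and 2.15-fold higher on the knockout array than on the wild type array. Hk2 had the highest ratio of the members and these genes the lowest, so the differences are large partly by this choice. How often other pairs of probe sets differ as much was not computed, and a difference of ratios carries the error of both. A scaling factor for a whole array cancels from these comparisons, but normalization that depends on the signal does not. With quantile normalization Hk2 was at 0.73 and Tpi1 at 0.06, in place of 0.75 and -0.05. Without Hk2, the other 7 genes had a median log2 ratio of -0.35, with 1 higher and 6 lower, and a range from -0.51 to 0.05.

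**Figure D3:**
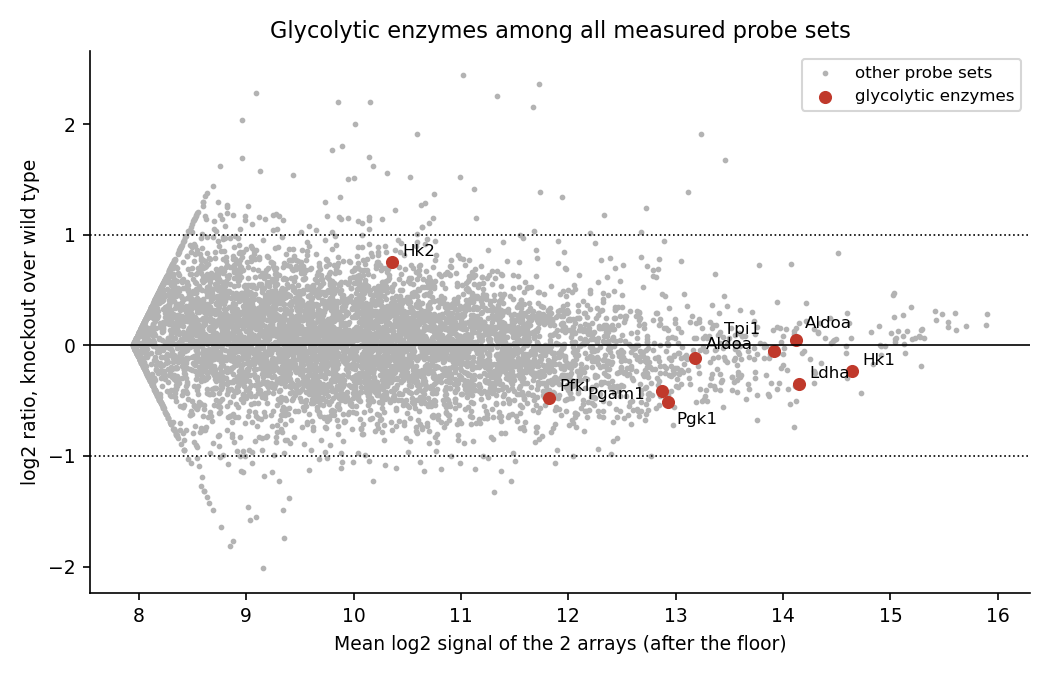
Log2 ratio of knockout over wild type against the mean log2 signal of the arrays for all 7067 measured probe sets (grey) and the 9 measured members (red, with gene names); dotted lines mark 2-fold. The members lie inside the cloud between the dotted lines, with Hk2 near its upper edge and Pfkl, Pgk1 and Pgam1 in its lower part.

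The steps that the 10 genes do not cover were read by other probe sets. Gapdh, the dehydrogenase between Tpi1 and Pgk1, is present through the 3 hybridisation control sets of the array, which read 28796, 31428 and 34242 in K5-/- skin and 30137, 30941 and 36269 in wildtype skin from the 3 prime, middle and 5 prime parts. The log2 ratios were -0.07, 0.02 and -0.08, close to those of Tpi1 and Aldoa. Pkm, the pyruvate kinase of most tissues, read 11217 in K5-/- skin and 13653 in wildtype skin (96066_s_at), a log2 ratio of -0.28. Its second probe set read 5799 and 8103, with a log2 ratio of -0.48, so both were lower. Pkm and the 3 measured members of the lower pathway were thus all lower on the knockout array, whereas the 3 Gapdh sets had ratios of either sign. The enolase step between Pgam1 and Pkm differed in direction. Eno1 was not measured, and the other enolase genes Eno3 and Eno2 were higher, at 0.29 and 0.81. The lower part of the pathway was therefore not lower at every step.

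Other isoforms of the same steps, several of them typical of particular tissues, were divided. Of 20 other isoforms and regulators listed, 14 had a named probe set and 11 were measured, with 6 higher, 5 lower, 0 at 2-fold and a median log2 ratio of 0.04, which became -0.05 with quantile normalization. Eno3, the enolase of muscle, read 12009 in K5-/- skin and 9833 in wildtype skin, a log2 ratio of 0.29. Pfkm, the phosphofructokinase of muscle, stood at 0.14 and Pgam2, the mutase of muscle, at -0.09. The 2 members of this list at or above 0.5, a value that 10.9% of all measured genes reached, named after their values were seen, were dim. Eno2, the enolase of neurons, read 622 and 355.6, a log2 ratio of 0.81. Pfkfb3, the inducible bifunctional enzyme whose product activates phosphofructokinase, read 448.1 in the knockout and lay under the floor in the wild type, at least 1.82-fold higher. With the floor at the 25th percentile its log2 ratio was 1.65, past 2-fold. A second Pfkfb3 probe set was under the floor on both arrays.

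The measured glucose transporter genes, Slc2a1 and Slc2a4, differed little between the arrays, and no lactate transporter gene was measured. Of 8 transporter genes with a probe set, 3 were measured and 5 were under the floor on both arrays. Slc2a1, the main glucose transporter of keratinocytes, read 1292 in K5-/- skin and 1283 in wildtype skin, a log2 ratio of 0.01. Slc2a4, the insulin-responsive transporter, was at -0.02, and Bsg, which encodes the chaperone of the lactate transporters, read 7016 and 7743, a log2 ratio of -0.14.

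Downstream of pyruvate, genes of the pyruvate dehydrogenase complex and its kinases were lower in 7 of 7 measured cases, beside 46.1% of all measured genes, with a median log2 ratio of -0.27 and 0 at 2-fold. Pdha1 and Pdhb, which encode the subunits of the decarboxylating enzyme, read 4696 and 3781 in K5-/- skin and 5947 and 4563 in wildtype skin, log2 ratios of -0.34 and -0.27. Pdk3, a kinase that inhibits the complex, was at -0.35, and Dld, the shared dihydrolipoamide dehydrogenase, at -0.15. Genes of the tricarboxylic acid cycle were lower in 12 of 16 measured cases, with a median of -0.16. Citrate synthase (Cs) read 5579 and 6869, a log2 ratio of -0.30, while Sdhc, Mdh2 and Sdhb were at -0.21, -0.20 and -0.16. Of these ratios, those of Pdha1, Pdk3 and Cs exceeded the SD of 0.30 between probe sets over all genes, and that of Pdhb exceeded the SD of 0.23 over bright genes.

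Hk2, Vegfa and Adm are all known hypoxia-responsive genes, and the hypoxia response outside glycolysis was divided. Of 14 measured genes, 8 were higher and 6 were lower, with a median log2 ratio of 0.15. The angiogenic factor Vegfa read 681 in K5-/- skin and 251.2 in wildtype skin, and the vasodilator peptide gene Adm read 967.5 and 324.6. They were 2.71-fold and 2.98-fold higher and were the only members of the list at 2-fold, a size that 1.54% of all measured genes reached upwards. With a floor at the 60th percentile both had bounds under 2-fold, 0.05 for Vegfa and 0.55 for Adm on the log2 scale. Hif1a, the oxygen-regulated subunit, was at 0.26 and Ndrg1 at 0.35. Ddit4, a stress-induced inhibitor of mTORC1, was at -0.003 (5505 against 5518), and Hmox1, the haem-degrading enzyme, at 0.16. Besides Ddit4, the 6 lower genes, named after their values were seen, were P4ha2 at -0.41, Egln2 at -0.34, Egln1 at -0.16, Bnip3 at -0.15 and Epas1 at -0.05. The hypoxia-responsive glycolytic genes Pgk1 and Ldha, at -0.51 and -0.35, lay on the other side of 0 from Vegfa, Adm and Hk2. The part of hypoxia in any of these ratios was not tested.

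**Figure D4:**
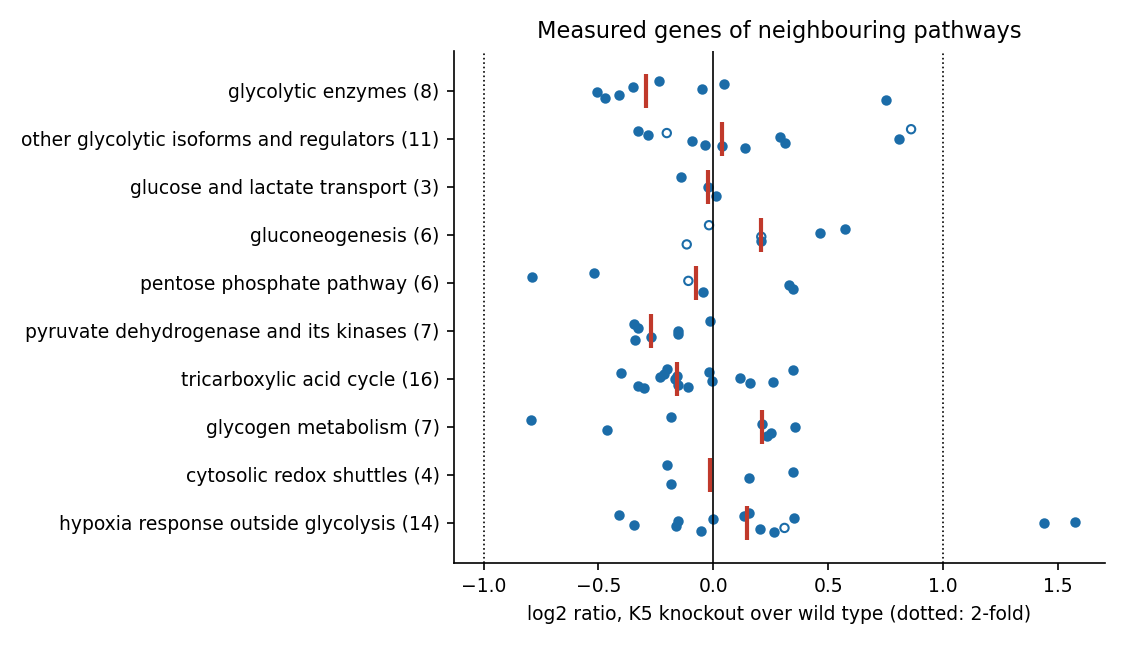
Log2 ratio of knockout over wild type for the measured genes of the glycolytic set and of neighbouring pathways (number of measured genes in brackets); filled points were above the floor on both arrays, open points are bounds, red bars are medians and dotted lines mark 2-fold. The medians of the glycolytic enzymes (-0.29) and of pyruvate dehydrogenase and its kinases (-0.27) are the lowest of the rows, and Vegfa and Adm lie beyond the right dotted line.

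Whole skin holds several tissues with their own glycolytic isoforms, and the markers of several of them were higher on the knockout array. In such pooled tissue, fewer cells of a type and less RNA per cell cannot be told apart. Over all measured genes, 53.9% were higher on the knockout array. All 11 measured skeletal muscle markers of 12 were higher, with a summed signal of 118434 in K5-/- skin and 98894 in wildtype skin (1.20-fold) and a median log2 ratio of 0.20, and Mb was under the floor. The sizes were uneven: 3 were at or above 0.5 (Myh8 at 0.94, Atp2a1 at 0.64 and Tnnt3 at 0.62). Tnni2, Acta1 and Des, at 0.09, 0.06 and 0.03, were well within the SD of 0.30 between probe sets. All 6 measured macrophage markers were higher, with sums of 8814 and 5914 (1.49-fold), a median of 0.58, and Fcgr3 and Itgam under the floor. Of 12 measured hair follicle markers, 11 were higher, with sums of 30085 and 22344 (1.35-fold) and a median of 0.40. Among these, Foxn1 was under the floor.

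Dermal fibroblast markers summed to 175724 and 149009 (1.18-fold, 5 of 6 measured higher, Vim under the floor) and adipocyte markers to 15415 and 12235 (1.26-fold, 4 of 5 higher, none under the floor). Of the adipocyte markers, Lep read 2501 in K5-/- skin and 870 in wildtype skin, a log2 ratio of 1.52. Lpl, Adipoq and Pparg were at 0.36, 0.11 and 0.08, and Fabp4 was at -0.20. Endothelial markers summed to 4201 and 3983 (1.05-fold, 3 of 5 higher, Flt1 under the floor). The share of all measured genes that were higher, 53.9%, is the background for the counts of these short lists. Both measured erythroid markers, Hba-a1 and Alas2, were higher, with Slc4a1 and Epb42 under the floor and a list sum of 48958 against 41720. Keratinocyte markers summed to 183111 and 164536 (1.11-fold), with 5 of 7 measured higher and Krt5, Krt14 and Krt15 under the floor. The sum therefore does not represent the basal keratins. Of the measured keratinocyte markers, Trp63, the transcription factor of basal cells, read 2494 in K5-/- skin and 3628 in wildtype skin, a log2 ratio of -0.54. Krt10 was the other lower marker, at -0.18. The 5 higher ones were Ivl at 1.27 (2461 in K5-/- skin and 1020 in wildtype skin), Sfn at 0.32, Lor at 0.29, Krt1 at 0.28 and Dsp at 0.11. The part of these marker differences in the ratios of the glycolytic genes was not tested.

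**Figure D5:**
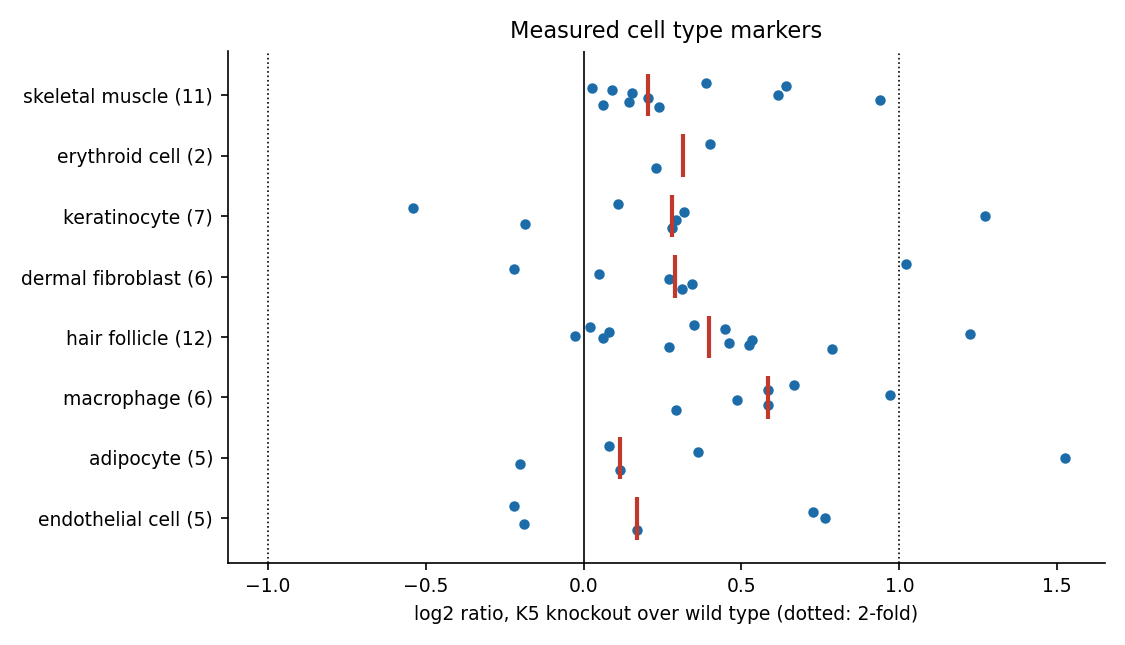
Log2 ratio of knockout over wild type for the measured markers of 8 cell types (number measured in brackets), with medians as red bars and 2-fold limits dotted. The median of every list lies to the right of 0, highest for macrophage markers (0.58) and lowest for adipocyte markers (0.11).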

How the data were processed

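Skin RNA of 6 newborn K5-/- and 6 newborn wildtype mice was isolated with TRIzol, pooled by genotype and cleaned on a column, and biotinylated cRNA was made from 2 µg of each pool, per the labels' protocols. The source name calls the tissue epidermis and the title calls it skin. The deposited values are intensities on a linear scale, 1 per probe set and array, made with MAS5 per the submitters' processing notes; its version, its detection calls and its scaling target are not given in the sources used here.

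From these intensities, each array was scaled to a common 2% trimmed mean, taken over 12422 probe sets without the controls, (factors 1.0001 and 0.9999). Values under the 40th percentile (246.7) were set to that floor and then log2 was taken. A ratio with 1 array at the floor is a bound, and a probe set at the floor on both arrays has none. Of these probe sets, 10833 had 1 gene symbol, 396 several and 1193 none. A RefSeq table (GRCm38.p6) matched 10817 of the single-symbol sets by gene identifier, and 0 symbols needed an update. Genes in lists are represented by their brightest probe set.

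Alternatives were floors at the 25th and 60th percentile, a pseudocount of 100, no filter, quantile, lowess (span 0.3) and median scaling, the mean over probe sets, plain probe sets only, and genes above the floor on both arrays. All members were named, and from each related list the 4 brightest genes above the floor on both arrays and any at 2-fold. The members and lists were chosen with earlier results of these data known. The calculation was tested on simulated data with Python 3.11.15, numpy 2.4.6, pandas 2.3.3 and statsmodels 0.14.6. MAS5 scaling hides any difference in total RNA per cell, and precision is limited by the number of arrays.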

Additional observations from a re-analysis of the deposited data

How the results depend on the processing

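No member probe set reached 2-fold under any of the 8 probe-level settings. All measured members lay above every floor, so changing the floor or dropping the filter left their ratios as they were. The log2 ratio of Hk2 stayed between 0.70 and 0.75, that of Pgk1 between -0.54 and -0.41, that of Pfkl between -0.50 and -0.40, that of Pgam1 between -0.44 and -0.31 and that of Ldha between -0.38 and -0.28, the last of which is within the SD of 0.30 between probe sets. Tpi1 ran from -0.08 to 0.06. The median over the member genes ran from -0.35 with plain probe sets only to -0.24 with quantile normalization. Counts over the whole array depended on the floor: against 107 probe sets at least 2-fold higher and 52 lower, a 25th percentile floor gave 256 and 133, a 60th percentile floor 49 and 19, and no filter 928 and 420. Of the probe sets past 2-fold, 67.3% were higher in the main setting, 56.7% with quantile normalization and 57.3% with lowess. The median of the glycogen genes, 0.21, became -0.12 with the mean over probe sets and -0.19 with plain probe sets only. In that list Gyg, named after its values were seen, was at 0.25 on its brightest probe set and at -0.49 on a plain one. The part of this Gyg difference in the change of the median was not tested. Alternatives for 39 named genes of the related lists were added after seeing the data. Of 448 alternative values in all, 434 stayed within 1 SD between probe sets or 1.5 times a count, 14 did not, and 0 values past 2-fold changed sign. For genes above every floor, the floor and no-filter settings return the main value, so many of the 434 could not differ. Small ratios that changed sign, such as that of Tpi1, count among the 434. Among the genes followed through the alternatives, which leave out the cell type markers, only Vegfa and Adm were past 2-fold in the main setting. No replicate could be left out, and no paired analysis was possible because each group holds 1 array. Low signals limit the second Hk2 probe set, which gives no ratio.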

Other observations

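Pathways that branch from glycolysis were mixed. In the pentose phosphate pathway, which supplies NADPH and ribose, 2 of 6 measured genes were higher and 4 were lower, with a median log2 ratio of -0.08. Tkt, which encodes transketolase, read 2020 in K5-/- skin and 3491 in wildtype skin, a log2 ratio of -0.79, and Taldo1, the transaldolase gene (named after its value was seen), read 1415 and 2029, a log2 ratio of -0.52. These 2 enzymes of the non-oxidative branch, which return carbon to glycolysis, had the lowest ratios of the list. Rpia, the ribose isomerase gene of the same branch, was at 0.33, so the branch was not lower as a whole. In the oxidative branch, Pgd was at 0.35 and Pgls, the lactonase gene, at -0.04. The transketolase value is lower than those of the 8 measured glycolytic genes and rests on 1 probe set.

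Genes of gluconeogenesis were dim: 4 of 6 were higher, 3 of the 6 ratios are bounds, and the median was 0.21. Fbp1 and Fbp2, which reverse the phosphofructokinase step, read 721.9 and 448.9 in K5-/- skin and 523.5 and 301.9 in wildtype skin, log2 ratios of 0.46 and 0.57. Fbp1 had a bound of 0.13 under the 60th percentile floor. Pck2 was at 0.21. Of 7 measured glycogen genes, 4 were higher and 3 were lower, with a median of 0.21. The muscle phosphorylase gene Pygm was at 0.36, the synthase gene Gys1 at 0.24 and Pgm1 at 0.21, while the brain-type phosphorylase gene Pygb was at -0.46. Pgm2, a dim gene of the phosphoglucomutase family named after its value was seen, read 258.4 in K5-/- skin and 448 in wildtype skin, a log2 ratio of -0.79. Of 4 measured genes of the cytosolic redox shuttles, 2 were higher and 2 were lower, with a median of -0.01. In that list Gpd1 was at -0.18, Got2 at 0.15 and Mdh1 at 0.35.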
